A study of Homo sapiens with 12 samples.

Results

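The mitochondrial ribosomal protein genes were chosen by their symbols, MRPL or MRPS followed by a number and, where present, a letter from A to C. Of 17085 genes in the count table, 78 had such a symbol, 49 of them MRPL genes for the large subunit and 29 MRPS genes for the small subunit. The RNA came from the human clear cell renal carcinoma line 786-O, an established cell line, after 24 h of treatment in 4 groups of 3 libraries each. The groups received dimethylsulfoxide (DMSO) as the vehicle control, 5 µM everolimus, an inhibitor of the kinase mTOR, 1.5 µM SGI-1027, which blocks DNA methyltransferases, or both drugs together. The sample records give 5 µM for every everolimus library but 10 µM in the growth protocol of everolimus alone, and the 5 µM of the study's methods is used here. All groups are the same cell line, so no second line or animal stands behind a difference between them. No source used here says that replicate libraries stem from separate cultures, and p-values then measure only the spread between these libraries, which may be technical.

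Human mitochondria translate a small set of respiratory chain and ATP synthase subunits encoded by their own DNA. They do so on ribosomes whose RNA is mitochondrial and whose proteins are all made from nuclear genes, translated in the cytosol and imported. The small subunit reads the messenger RNA at the decoding centre, and the large subunit forms peptide bonds and releases the chain through a tunnel beside the inner membrane. Some members have bacterial homologues, whereas others were acquired in the mitochondrial lineage. Loss of either subunit leaves cells without oxidative phosphorylation.

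Library totals ranged from 37046231 to 41516976 counts, and TMM factors, which correct for composition, from 0.99 to 1.01. The renal carcinoma markers PAX8, VIM, KRT8, KRT18, CA12, EPAS1, NNMT and PAX2 were present in every library, with PAX8 between 317 and 488 CPM (counts relative to the library total, TMM-normalized). CA9 was near 0, at 0.0521 to 0.838 CPM, and no library held more than 12 counts of any marker of blood, endothelial or liver cells (PTPRC, CD3E, PECAM1, CDH5 and ALB). SGI-1027 replicate 3 stood apart from the other libraries of its group, with a chi-square per gene of 16.4 and 16.1 against them where they differed from each other by 3.04. DMSO replicate 1 differed from the other DMSO libraries by 10.1 and 12.9, against 3.56 between those. Counts of members are therefore also given without each of these libraries.

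Of the 78 members, 77 passed edgeR's filter on low counts and were tested among 12841 genes. The exception was MRPS24, with 1 to 8 counts per library. In the GENCODE 29 annotation its exons are shared with the readthrough gene URGCP-MRPS24, which was not analysed here. The other members were expressed in every group. Their FPKM values, which relate fragments to the length of the gene and the depth of the library, ranged in the DMSO group from 1.95 to 114 with a median of 28.3. Over all libraries the mean FPKM was highest for MRPL51 (99.2), MRPS34 (78.0) and MRPL24 (75.8), and lowest among tested members for MRPL42 (1.45) and MRPL50 (4.33). By counts MRPL42 was not among the weakest. Its DMSO mean was 30.5 CPM, against 18.3 CPM for MRPL1, whose mean FPKM with DMSO was 15.5. FPKM divides by gene length, which CPM does not. Apart from this difference between the measures, MRPL42 has 6 named pseudogenes, and how the counting divided such reads was not stated.

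As a whole, the members took 0.394% ± 0.00412 of all counts in the DMSO group (SD, n = 3), 0.308% ± 0.00264 with everolimus, 0.288% ± 0.00903 with SGI-1027 and 0.297% ± 0.00516 under both drugs. No treated library reached the lowest DMSO library, which held 0.390%. The treated means amounted to 78.2%, 73.1% and 75.4% of the DMSO mean, so that the combination stood between the single drugs. SGI-1027 replicate 3 was the lowest of all libraries at 0.278%. RNA was pooled from all cells of a culture, so a change in the cells present and a change in the RNA per cell cannot be told apart.

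**Figure D1:**
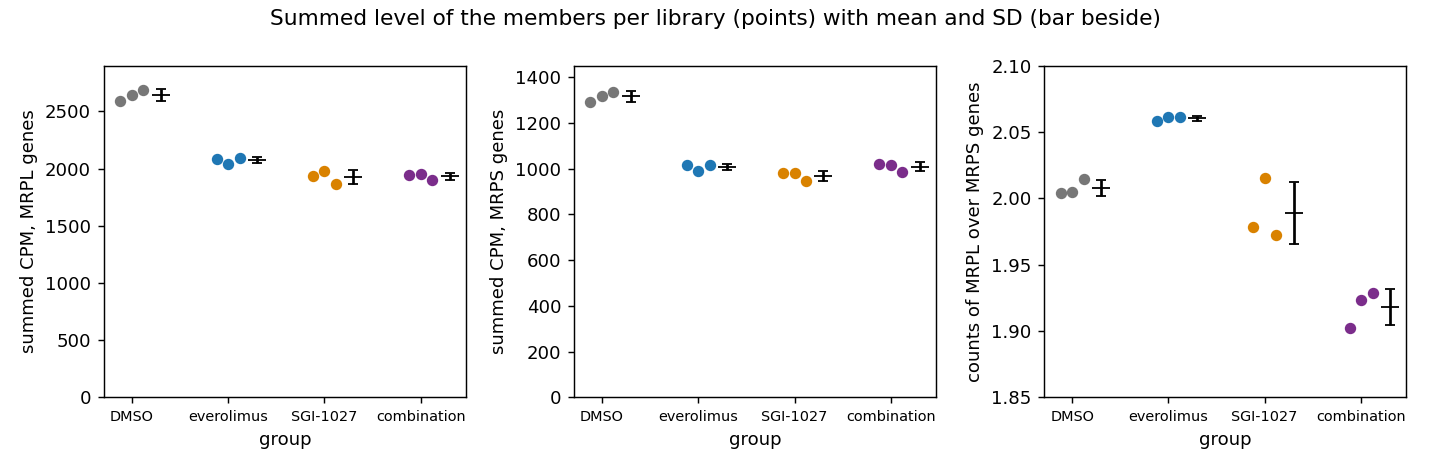
Summed level of the MRPL genes (left) and MRPS genes (middle) in TMM-normalized CPM and the ratio of their counts (right, axis not from 0) for each library in the 4 groups. Points are libraries and the bar beside them the mean ± SD (n = 3). Every treated library lies below every DMSO library in both sums, and the ratio is highest with everolimus and lowest with the combination.

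With everolimus, 61 of the 77 members were lower than with DMSO at an adjusted p under 0.05 (edgeR's quasi-likelihood test, Benjamini-Hochberg over all tested genes), where 29.2% of all tested genes were lower. With SGI-1027, 70 members were lower, against 30.6% of all genes. With the combination, 64 members were lower, against 33.4% of all genes. In none of the 3 groups was a member called higher by edgeR, neither at an adjusted nor at an unadjusted p under 0.05, and DESeq2 and limma-trend also called 0. Among all genes, 27.2%, 32% and 32.8% were higher in the 3 groups, respectively. Without SGI-1027 replicate 3 the numbers of lower members were 64, 68 and 66, and 1 member was then called higher with the combination. Without DMSO replicate 1 they were 64, 72 and 65.

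The falls were small and broadly shared. The members had a median log2 fold change of -0.37 under everolimus, -0.45 under SGI-1027 and -0.43 under both, where the medians over all genes were 0.00, 0.02 and 0.01. The quartiles of the members were -0.50 and -0.23, -0.56 and -0.30, and -0.56 and -0.25. The treated libraries lay entirely below the DMSO libraries for 62, 69 and 62 members, respectively, against 32.3%, 30.7% and 34.7% of all genes. By the cut-off of the study (a change of 1 or more on the log2 scale at an unadjusted p under 0.05), 0 members were called in any treated group, although 63, 73 and 64 were lower at an unadjusted p under 0.05. That cut-off called 0.903%, 1.07% and 2.71% of all genes as lower.

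In detail, 56 of the 77 tested members were called lower in all 3 treated groups, against 22.1% of all tested genes, and 71 in at least 1, against 40.6%. The mean level was highest in the DMSO group for 72 of these 77. The lowest mean was that of SGI-1027 for 38 members, of the combination for 29 and of everolimus for 10. The 3 comparisons share the DMSO libraries, so they are not independent of each other.

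**Figure D2:**
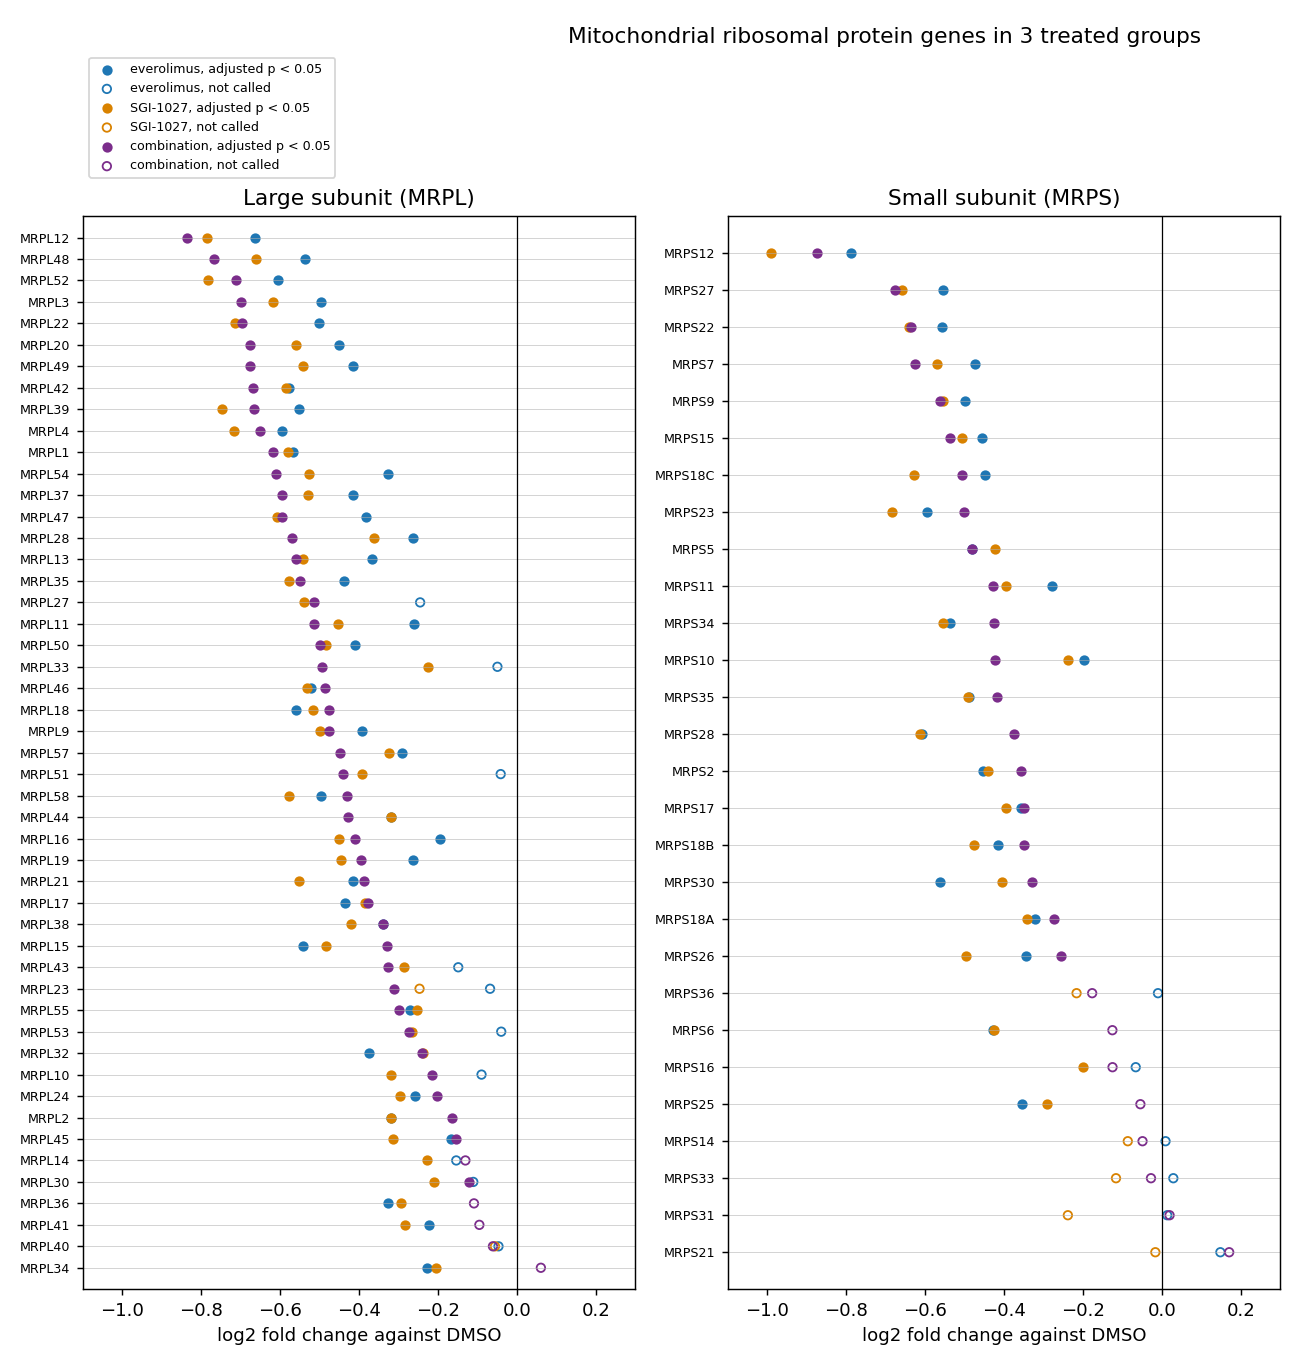
log2 fold change against DMSO of the 49 MRPL and 28 tested MRPS genes, ordered by the combination, with filled points at an adjusted p under 0.05 in edgeR's quasi-likelihood test. Nearly all points lie below 0, between -0.99 (MRPS12 with SGI-1027) and 0.17 (MRPS21 with the combination). Most open points gather at the lower end of each panel, but those of MRPL27, MRPL33 and MRPL51 with everolimus lie further up.

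MRPS12, a protein of the decoding centre, had the largest fall of all members in each treated group. Its level was 32.5, 34.7 and 35.0 CPM in the DMSO libraries, 20.4, 18.7 and 20.2 with everolimus, 17.5, 18.6 and 15.4 with SGI-1027, and 17.5, 17.8 and 20.4 with the combination. The treated libraries thus lay far below DMSO, and those of the combination overlapped with both single drugs. The log2 fold changes were -0.79 (standard error 0.075), -0.99 (0.076) and -0.88 (0.076), with edgeR adjusted p values of 7.78e-08, 3.14e-09 and 1.07e-08. Its exons overlap those of SARS2 on the opposite strand, and since the counting was not stated to use strand, reads of the 2 genes cannot be told apart.

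MRPL12, which forms the flexible stalk that recruits translation factors, followed among the MRPL genes. The DMSO libraries held 99.3, 94.4 and 101 CPM, the everolimus libraries 61.2, 58.4 and 66.5, the SGI-1027 libraries 57.4, 60.6 and 53.1 and the combination libraries 55.9, 53.4 and 56.0. Its log2 fold changes were -0.66, -0.79 and -0.84, and the combination was also lower than everolimus (-0.17, standard error 0.056, edgeR adjusted p = 0.0221). Of the stalk base, MRPL11 changed by -0.26, -0.45 and -0.52, each called. MRPL10, which carries the MRPL12 copies, was called with SGI-1027 (-0.32) and the combination (-0.22), and its value with everolimus was -0.09.

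MRPL3, near the peptidyl transferase centre, was measured with little spread, at 154, 155 and 156 CPM with DMSO, 111, 107 and 111 with everolimus, 100.1, 101 and 102 with SGI-1027, and 92.5, 100.2 and 93.7 with the combination. Its combination log2 fold change of -0.70 (standard error 0.039, edgeR adjusted p = 2.74e-11) was accompanied by -0.50 and -0.62 in the single-drug groups. The tunnel proteins MRPL4 and MRPL22 had -0.60 and -0.50 with everolimus, -0.72 and -0.71 with SGI-1027, and -0.65 and -0.70 with the combination, each called. MRPL23, also at the tunnel, was called only with the combination (-0.31), and its values with the single drugs were -0.07 and -0.25. MRPL45, which anchors the tunnel exit to the inner membrane, fell less, by 0.17, 0.31 and 0.15 on the log2 scale, with the first and last of these calls lost without DMSO replicate 2 (-0.14 and -0.12) and with upper-quartile scaling (-0.09 and -0.10). MRPL2 and MRPL24, further homologues of bacterial proteins, were lower by 0.16 and 0.20 with the combination, and the call of MRPL2 was lost in 5 of the fits that left out 1 library (-0.16 to -0.11) and with limma-trend on either pseudocount, library totals, upper-quartile scaling and a minimum of 10 counts (-0.15 to -0.11).

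Members were also grouped by origin, and no test was made between these groups. Of the 20 tested mitochondria-specific members of the large subunit, 16, 19 and 18 were lower in the everolimus, SGI-1027 and combination groups (medians -0.37, -0.45 and -0.44), and of the 31 with bacterial homologues 25, 30 and 28 (-0.33, -0.45 and -0.41). In the small subunit, 8, 8 and 7 of 10 mitochondria-specific members were lower (-0.45, -0.49 and -0.38), and 12, 13 and 11 of 15 with bacterial homologues (-0.45, -0.43 and -0.42). The median departure from additivity, explained with its results further on, was 0.56 for the former and 0.42 for the latter. In the large subunit it was 0.37 for mitochondria-specific members and 0.39 for those with bacterial homologues. Among the mitochondria-specific members of the large subunit, MRPL52 changed by -0.61, -0.78 and -0.71 and MRPL39, a relative of threonyl-tRNA synthetase, by -0.55, -0.75 and -0.67. MRPL48 of the central protuberance fell from 18.9, 20.9 and 19.1 CPM with DMSO to 10.8, 13.5 and 10.3 with the combination (log2 fold change -0.77). MRPL42 fell by 0.67 and MRPL50 by 0.50 in that group. MRPL40, also of the central protuberance, held 33.8 to 36.5 CPM with DMSO and 32.4 to 36.3 with the combination (95% interval of the log2 fold change -0.20 to 0.07), and was called in no group.

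Several members have a second history or another place than their name says. MRPL58, a peptidyl-tRNA hydrolase that rescues stalled ribosomes and was built into the large subunit, changed by -0.50, -0.58 and -0.43. MRPS30 and MRPS18A carry small subunit names but sit in the large subunit, and had -0.56, -0.41 and -0.33 and -0.32, -0.34 and -0.27, respectively. The other relatives of bacterial S18, MRPS18B and MRPS18C, had -0.42, -0.48 and -0.35 and -0.45, -0.63 and -0.51. All of these values passed the test. MRPS36, in contrast, is counted today as a subunit of the 2-oxoglutarate dehydrogenase complex (KGD4) rather than of the ribosome, and was called in no group, with values of -0.01, -0.22 and -0.18 and standard errors of 0.184 to 0.186. It was weakly expressed, at 3.39 to 7.42 CPM.

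Besides MRPL40 and MRPS36, the members called in no treated group were MRPS14, MRPS21, MRPS31 and MRPS33, all small subunit proteins. MRPS21 held 25, 28.5 and 31.8 CPM with DMSO and 33.2, 32.3 and 30.4 with the combination (log2 fold change 0.17, 95% interval -0.06 to 0.40), so that these libraries overlapped. MRPS14, MRPS31 and MRPS33 had combination log2 fold changes of -0.05, 0.02 and -0.03. For MRPS31 the SGI-1027 value was -0.24, with all 3 libraries below the DMSO libraries but an edgeR adjusted p = 0.0613. MRPS21 has 9 named pseudogenes, MRPS36 6, MRPS33 4 and MRPS31 3, whereas MRPS14 has none, and how the counting divided such reads was not stated.

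The subunits were compared by counts and medians, with no test of the difference between them. With everolimus, 39 of 49 MRPL genes (median log2 fold change -0.34) and 22 of 28 MRPS genes (-0.44) were lower. With SGI-1027 the numbers were 47 (-0.45) and 23 (-0.43), and with the combination 44 (-0.45) and 20 (-0.37). The MRPL median minus the MRPS median was thus 0.10, -0.02 and -0.08 in the 3 groups. On leaving out 1 library it ranged from 0.059 to 0.12, from -0.048 to 0.022 and from -0.098 to -0.032. Within single libraries, the same difference relative to DMSO ranged from 0.04 to 0.09 with everolimus, from -0.07 to 0.09 with SGI-1027, and from -0.09 to -0.07 with the combination, against -0.01 to 0.02 for the DMSO libraries themselves. The everolimus and combination libraries therefore moved to opposite sides of DMSO, while the SGI-1027 libraries spread over both. With MRPS30 and MRPS18A placed in the large subunit and MRPS36 left out, the difference was 0.11, 0.0243 and -0.0242 in the same order of groups.

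The summed counts gave the same order. The MRPL genes together had 2.004 to 2.014 times the counts of the MRPS genes in the DMSO libraries, 2.06 times in each everolimus library, 1.97 to 2.02 times with SGI-1027 and 1.90 to 1.93 times with the combination. On the FPKM scale the ratio was 2.44 to 2.47 with DMSO, 2.61 to 2.62 with everolimus, 2.46 to 2.57 with SGI-1027 and 2.39 to 2.44 with the combination, where the combination and DMSO ranges touched. These sums are led by the strongly expressed members and are given as descriptions, with no test.

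When SGI-1027 was added to everolimus, 16 members were lower and 6 higher than with everolimus alone (edgeR adjusted p under 0.05), against 19.2% lower and 20.1% higher of all genes, and the median of the members was -0.06. The counts of members were thus close to or below the background. Without SGI-1027 replicate 3, 22 were lower. Of the 16, 13 were MRPL genes. The largest of these falls was that of MRPL33, a small protein of the large subunit, with 37.1, 32.1 and 32.5 CPM with everolimus and 24.3, 26.7 and 23.7 with the combination (log2 difference -0.44, standard error 0.094, edgeR adjusted p = 0.00100). With everolimus alone all 3 libraries were within the DMSO range of 31.2 to 37.3 CPM (log2 fold change -0.05). The SGI-1027 value of MRPL33 was -0.23, and its call was lost without SGI-1027 replicate 3 (-0.11, edgeR adjusted p = 0.222), which held 25.1 CPM against 33.0 and 31.8 in the other libraries.

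MRPL51 showed a similar course, with 97.1 to 107 CPM in the DMSO group, 98.8 to 102 with everolimus, 67.6 to 84.4 with SGI-1027 and 74.5 to 77.2 with the combination. It was lower with the combination than with everolimus by 0.40 on the log2 scale (standard error 0.064, edgeR adjusted p = 6.04e-05). Its exons overlap those of NCAPD2 on the opposite strand, a condensin gene that itself changed by -0.37, -0.89 and -1.04 in the 3 groups, and reads of the 2 cannot be told apart without strand. In all, 7 of the 77 members were called lower in both SGI-1027-containing groups but not with everolimus, against 4.76% of all tested genes, namely MRPL10, MRPL27, MRPL30, MRPL33, MRPL43, MRPL51 and MRPL53, all of the large subunit. For MRPL27 the everolimus value was -0.25, so that a missed call does not mean an unaltered level. The combination call of MRPL30 was lost in 4 of the fits that left out 1 library (-0.11 to -0.10). Under 6 other settings it was lost as well (-0.12 to -0.07). The SGI-1027 call of MRPL33 was lost in 5 of the fits that left out 1 library (-0.23 to -0.11). It was also lost with upper-quartile scaling, a minimum of 10 counts, a fit of only the 2 groups and limma-trend on either pseudocount (-0.23 to -0.17).

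When everolimus was added to SGI-1027, 2 members were lower and 6 higher than with SGI-1027 alone (edgeR adjusted p under 0.05), against 10.2% and 9.4% of all genes, with a median of 0.04. These counts were unsteady, at 1 to 4 lower and 3 to 10 higher on leaving out 1 library, 3 and 9 in DESeq2 and 1 and 13 in limma-trend. There were 10 higher without DMSO replicate 1, 3 without combination replicate 2 or 3, and 4 lower without SGI-1027 replicate 3. The lower ones were MRPL28 and MRPS10. MRPL28 held 108 to 114 CPM with DMSO, 87.5 to 94.3 with everolimus, 84.6 to 86.5 with SGI-1027 and 70.4 to 77.3 with the combination, and the combination libraries overlapped with no other group. The difference was -0.31 from everolimus and -0.21 from SGI-1027 (standard error 0.046 for both, edgeR adjusted p = 3.27e-05 and 0.00349). MRPS10 had -0.23 and -0.19. These were the 2 members whose combination level was called below that of both single drugs, against 7.63% of all genes.

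Conversely, 4 members had a combination level called above that of both single drugs, against 7.9% of all genes, namely MRPS6, MRPS25, MRPL34 and MRPL36. The members on either side rest on the unsteady calls against SGI-1027. MRPS6 held 13.9, 15.1 and 16.8 CPM with DMSO, 10.6, 11.9 and 11.4 with everolimus, 12, 11 and 11.1 with SGI-1027, and 13.1, 14.2 and 14.6 with the combination. Either drug alone lowered it by 0.43 on the log2 scale, and with both the value was -0.13 (edgeR adjusted p = 0.181). MRPS25 had -0.36 and -0.29 with the single drugs and -0.06 with the combination, and MRPL34 had -0.23, -0.21 and 0.06. The combination libraries of all 3 genes overlapped with DMSO and lay above every single-drug library. MRPS25 and MRPL34 overlap exons of NR2C2 and ABHD8 on the opposite strand, and MRPS6 those of SLC5A3 on its own strand.

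**Figure D3:**
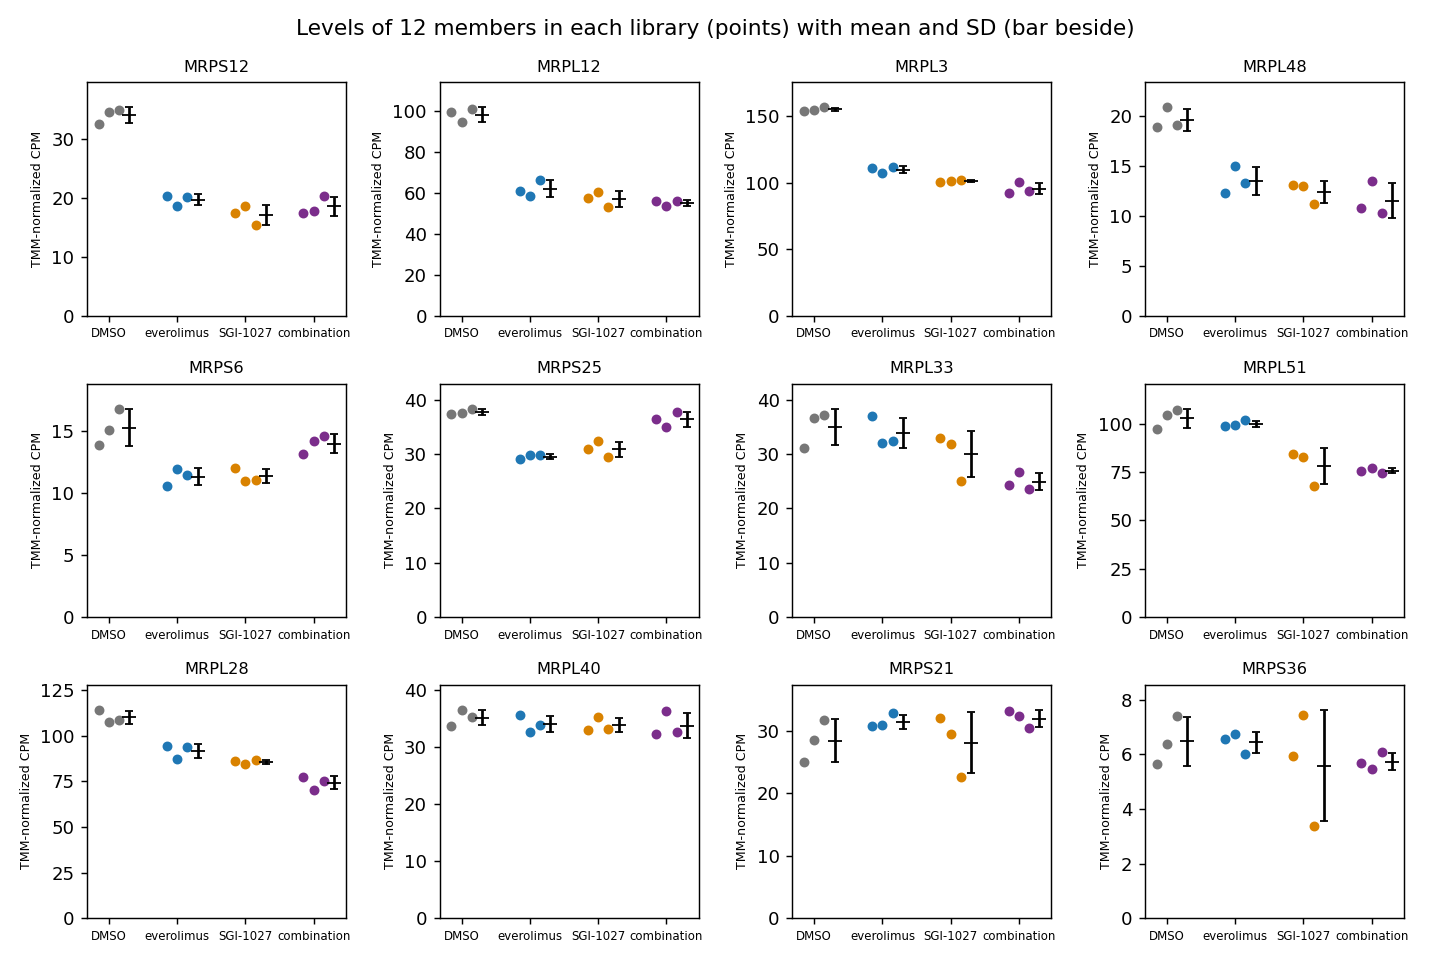
TMM-normalized CPM of 12 members in each library of the 4 groups, with points for libraries and a bar beside them for the mean ± SD (n = 3). MRPS12, MRPL12, MRPL3 and MRPL48 were low in all treated groups, MRPS6 and MRPS25 returned to the DMSO range with the combination, MRPL33 and MRPL51 were near DMSO with everolimus, MRPL28 was lowest with the combination, and MRPL40, MRPS21 and MRPS36 were called in no group.

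The departure from additivity sets the log2 fold change under both drugs beside the summed log2 fold changes of each drug alone, so that 0 means that the drugs multiplied. It was above 0 for 54 of the 77 members (edgeR adjusted p under 0.05) and below 0 for 0, where 23.6% of all genes were above and 22.1% below. At an unadjusted p under 0.05, 60 were above and 0 below, and DESeq2 gave 58 and 0. The median departure was 0.42 for the members and -0.01 for all genes. In other terms, the median sum of both single-drug values was -0.86 whereas the median with the combination was -0.43, close to the median of the larger single-drug fall of -0.48. Against neither single drug was the combination called for 53 of the 77 members, nor for 56.9% of all genes. Without SGI-1027 replicate 3, 53 departures were above 0 and 1 below, and without DMSO replicate 1 61 were above. The DMSO mean enters this contrast with a positive sign and both single-drug values with a negative one, so its error is shared by all of them.

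The departure was called for 33 MRPL genes (median 0.37) and 21 MRPS genes (0.51), and it was largest for small subunit genes. MRPS12 had 0.91 (standard error 0.109), MRPS28 0.85 (0.229), MRPS23 0.78 (0.109) and MRPS6 0.73 (0.117). MRPS28 was among the weakest, with 4.19 to 6.02 CPM with DMSO, 2.66 to 3.59 with everolimus, 3.14 to 3.28 with SGI-1027 and 3.44 to 4.35 with the combination. MRPS23 held 41.6 to 51.0, 30.3 to 31.6, 26.0 to 31.6 and 31.1 to 34.7 CPM in the same order. In both genes each treated mean was below DMSO, and the combination was not below the single drugs. The lowest departures still called were those of MRPL30 (0.20), MRPL55 (0.22), MRPS11 (0.24) and MRPL49 (0.28). The call of MRPL30 was lost in 5 and that of MRPL55 in 7 of the fits that left out 1 library, and MRPL55 lost it also with the replicate number as a block (0.22, edgeR adjusted p = 0.0575). MRPL33 had the lowest estimate, -0.22 (95% interval -0.52 to 0.09, edgeR adjusted p = 0.191), and that of MRPL51 was -0.01.

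**Figure D4:**
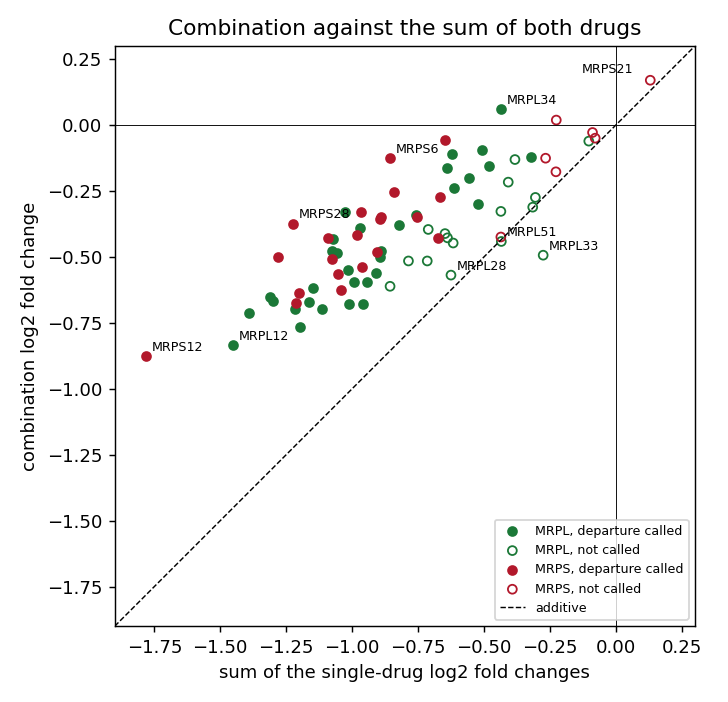
Combination log2 fold change against DMSO (vertical) and sum of the everolimus and SGI-1027 log2 fold changes (horizontal) for the 77 tested members, with the additive line dashed and filled points where the departure was called. All but 2 points lie above the line, MRPS12 the farthest, and MRPL33 and MRPL51 lie on or below it. Both axes contain the same DMSO libraries.

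Other genes of mitochondrial translation were examined as lists. As background, 29.2%, 30.6% and 33.4% of all tested genes were lower in the 3 treated groups and 27.2%, 32% and 32.8% higher. A departure above 0 was called for 23.6% of all tested genes. Mitoribosomal proteins under other names numbered 5 (DAP3, PTCD3, AURKAIP1, CHCHD1 and GADD45GIP1), and all 5 were lower in each treated group, with medians of -0.37, -0.52 and -0.48. AURKAIP1 had -0.37, -0.55 and -0.48, and GADD45GIP1 -0.42, -0.57 and -0.57. Their departures were called above 0 in 4 cases. Of 28 genes for assembly of the ribosome and modification of its RNA, 20, 21 and 20 were lower and 2, 2 and 3 higher. In this list, C1QBP fell by 0.77, 0.85 and 0.77 and ERAL1, which binds the small subunit RNA, by 0.46, 0.69 and 0.68.

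Of 18 translation factors, 13, 13 and 11 were lower and 0, 3 and 3 higher in edgeR, with 1 higher at an unadjusted p under 0.05 with everolimus. The elongation factor GFM1 had -0.72, -0.85 and -0.76, and SLIRP, which stabilizes mitochondrial messenger RNA, -0.81, -0.94 and -0.83. Of 20 mitochondrial aminoacyl-tRNA synthetases and related enzymes, 12, 14 and 12 were lower and 1, 2 and 2 higher, with EARS2 at -0.70, -0.82 and -1.05 and LARS2 at -0.39, -0.59 and -0.57. Of 13 regulators of mitochondrial gene expression, 8, 6 and 5 were lower and 2, 2 and 3 higher. The share lower with the combination, 38.5%, was near the 33.4% of all tested genes. GABPB1, a subunit of an ETS family factor that acts on mitochondrial genes, changed by -0.59, -0.75 and -0.90, and MYC by 0.36, 0.44 and 0.61. In these lists, too, many departures were called above 0. They numbered 21 of 28 for the assembly genes (median 0.35) and 11 of 18 for the translation factors (0.40). For the synthetases they were 9 of 20 (0.22) and for the regulators 6 of 13 (0.34). Below 0 were 2 assembly genes and 1 regulator, against 22.1% of all tested genes. A departure above 0 was thus not particular to the ribosomal proteins. The transcripts encoded by mitochondrial DNA were not analysed here.

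Lists outside mitochondrial translation had medians nearer to 0 than the members. With the combination, so did the assembly genes (-0.21), translation factors (-0.23), synthetases (-0.29) and regulators (-0.11). Of 75 nuclear-encoded oxidative phosphorylation subunits, 32, 50 and 47 were lower and 4, 1 and 1 higher, with medians of -0.11, -0.24 and -0.20, and 24 departures were above 0 (median 0.09). SDHB (-0.61) and CYC1 (-0.53) had the smallest p of this list with the combination. Of 78 tested cytosolic ribosomal proteins, 7, 20 and 12 were lower and 14, 4 and 11 higher, with medians of 0.06, -0.06 and 0.03 and 10 departures above 0 (median 0.03). RPS26 (-0.98) and RPL24 (-0.39) had the smallest p of that list with the combination. The falls of the mitochondrial ribosomal proteins stood beside medians near 0 for their cytosolic counterparts in the same libraries. No test was made between lists.

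**Figure D5:**
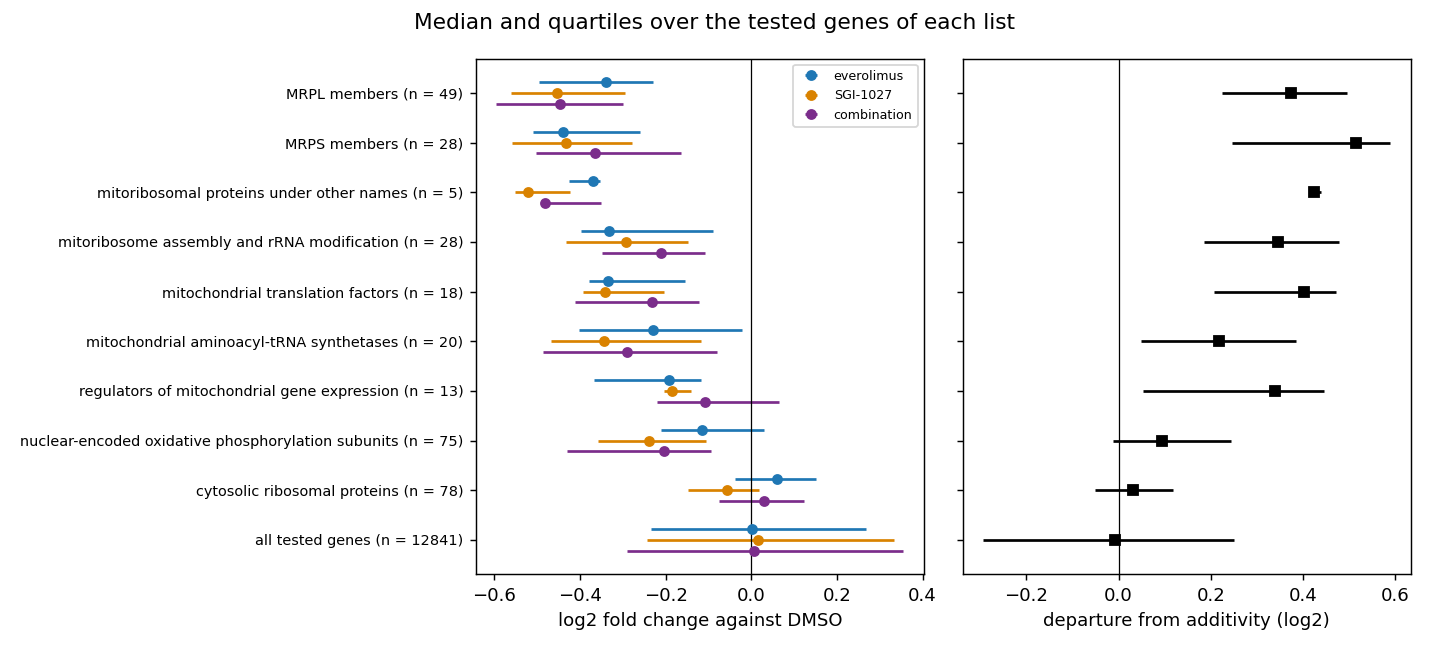
Median (points) and quartiles (lines) of the log2 fold change against DMSO in the 3 treated groups (left) and of the departure from additivity (right) over the tested genes of each list. MRPL and MRPS genes lie below 0 in all groups and above 0 for the departure, cytosolic ribosomal proteins and all tested genes lie near 0. The median departures of the other lists of mitochondrial translation also lie above 0.

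Promoter sequence was available from RefSeq (GRCh38.p14, 250 bases before to 50 after the start) for 69 of the 78 members, with 85 windows. Letters of known binding motifs were searched on both strands, and none of them contains another. The ETS core CCGGAAG, the site of GABPA with GABPB1, was found in 43.5% of these members, against 22.2% of tested genes and 12.2% of all genes with a promoter. The YY1 letters AANATGGCG were found in 26.1%, against 8.05% and 3.85%, and the NRF1 letters GCGCANGCG in 20.3%, against 16.7% and 9.02%. The E box CACGTG of MYC was found in 13.0%, 12.6% and 8.78%, and the SP1 letters GGGCGG in 60.9%, 76.8% and 48.3%. Among the nuclear-encoded oxidative phosphorylation subunits the ETS, YY1 and NRF1 letters were found in 32.8%, 27.9% and 34.4% of genes with a promoter. For cytosolic ribosomal proteins the shares were 34.9%, 12.7% and 12.7%. Sites of strongly lowered members and of members called in no group are shown with 30 bases each, 5′ to 3′ on the strand of the gene, with the motif in capitals, to let their surroundings be compared. The first 5 belong to lowered members (MRPS12, chr19:38930927-38930956, plus strand; MRPL48, chr11:73787799-73787828, plus; MRPL3, chr3:131502986-131503015, minus; MRPL52, chr14:22829812-22829841, plus; MRPL22, chr5:154941038-154941067, plus) and the last 3 to members without a call (MRPL40, chr22:19432522-19432551, plus; MRPS21, chr1:150293838-150293867, plus; MRPS31, chr13:40771205-40771234, minus).
MRPS12, ETS: cacggatagcgcCCGGAAGaggctagaagc
MRPL48, ETS: gaatttcagaagCTTCCGGaactaaaatga
MRPL3, ETS: ttgtaaaacgcaCCGGAAGtgggtccggcg
MRPL52, YY1: aacccagattcAAGATGGCGacttcctgct
MRPL22, NRF1: tccagagtattGCGCATGCGtgctgtccag
MRPL40, ETS: aggggcgcacgcCCGGAAGcggcgagggta
MRPS21, ETS: ccgtaatttccgCTTCCGGtagtgagaacc
MRPS31, ETS: gaaggcgccaggCCGGAAGcggaagagagg

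The ETS letters stood within 63 bases before the start both in MRPS12, MRPL48 and MRPL3 and in MRPL40, MRPS21 and MRPS31, so that lowered members and members without a call both held them. The YY1 letters were likewise found in MRPS14 and the NRF1 letters in MRPS33, which were called in no group and whose sites are not printed. The median combination log2 fold change was -0.44 for 30 tested members with the ETS letters and -0.43 for 38 without. It was -0.48 with and -0.43 without the YY1 letters (17 and 51 members), -0.40 and -0.44 for NRF1 (14 and 54), -0.36 and -0.43 for the E box (9 and 59), and -0.38 and -0.51 for SP1 (41 and 27). A match describes the letters only and shows no binding.

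Of the 69 members, 26 (37.7%) had a neighbour that starts within 1000 bases on the opposite strand and runs away from it, against 28.6% of tested genes. The share was 42.6% for nuclear-encoded oxidative phosphorylation subunits and 34.9% for cytosolic ribosomal proteins. Both MRPL46 and MRPS11 are members and share such a promoter. Of 17 tested partners that are not members, 9, 9 and 7 were lower and 2, 4 and 4 higher in the everolimus, SGI-1027 and combination groups, with medians of -0.22, -0.16 and -0.12. Among all tested genes, 29.2%, 30.6% and 33.4% were lower and 27.2%, 32% and 32.8% higher. SARS2, the mitochondrial seryl-tRNA synthetase beside MRPS12, had -0.55, -0.69 and -1.00, whereas ZNF189 beside MRPL50 had 0.43, 0.47 and 0.36. The neighbours therefore included genes of both directions beside members that fell. Of the partners, PSMA2, NCAPD2, SARS2, FAU and GGA3 also overlap exons of their member on the opposite strand. Reads of such pairs cannot be told apart without strand, and PSMA2, NCAPD2 and SARS2 were called lower in each treated group.

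Exons of another protein-coding gene overlap 17 members on the opposite strand and 10 on the same strand, and 42 members have named pseudogenes, 106 in all. Among the 25 tested members with none of these, 20, 23 and 23 were lower in the everolimus, SGI-1027 and combination groups and 17 had a departure above 0, with medians of -0.37, -0.52, -0.43 and 0.44.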

How the data were processed

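The authors deposited raw counts for each gene symbol in each library. The authors also deposited FPKM values of these genes, which they had normalized for gene length and library size. The aligner, the counting program and its strand setting are not given in the sources used here. The submitters' processing notes name a mouse build although the cells are human. The study's methods name TRIzol and the TruSeq Stranded mRNA LT kit, the sample records RNeasy and a SMARTer kit.

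Counts were analysed with edgeR 4.0.16 in R 4.3.3. Genes passing filterByExpr were scaled by TMM, and all 12 libraries entered 1 quasi-likelihood fit without covariates. Each treated group was contrasted with DMSO, the combination with each single drug, and the combination with the sum of both (departure from additivity). Calls used a Benjamini-Hochberg adjusted p under 0.05 over 12841 genes. Intervals are 95% with 8 residual degrees of freedom. CPM are TMM-normalized, and errors are SDs or standard errors. At this depth the spread of 3 libraries, more than counting error, set the precision. Replicate numbers did not pair libraries across groups, with correlations of deviations from -0.295 to 0.068. Alternatives were DESeq2 1.42.0, other scalings and filters, a replicate block, fits of 2 groups, limma-trend (limma 3.58.1) on log2(FPKM + 1) and log2(FPKM + 0.1), leaving out each library, and the cut-off of the study. The fit was also run on simulated data with the same spread for every gene and changes only in the combination group. The real replicates differed unevenly, so that run does not measure how reliable the calls made here are.

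Members and gene lists were chosen with earlier results of these data known. Named members were the 6 highest and 6 lowest log2 fold changes among those called in each treated group, the 4 highest and 4 lowest departures, the 3 highest and 3 lowest by mean FPKM, MRPL12, MRPL58, MRPS12, the MRPS18 genes, MRPS30 and MRPS36, and for each other list the 2 genes with the smallest p with the combination. Further genes were named after their values were seen. Promoters and overlaps came from RefSeq and GENCODE 29.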

Additional observations from a re-analysis of the deposited data

Results flagged for a closer look

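For 8 members the effect of everolimus differed with and without SGI-1027, tested as the departure from additivity in edgeR with an adjusted p under 0.05. These were the 4 highest and the 4 lowest of the 54 departures called. The effect of everolimus on the log2 scale was higher in the presence of SGI-1027 than in its absence by 0.91 for MRPS12, 0.85 for MRPS28, 0.78 for MRPS23 and 0.73 for MRPS6. It was higher by 0.28 for MRPL49, 0.24 for MRPS11, 0.22 for MRPL55 and 0.20 for MRPL30. The calls of MRPS11, MRPL55 and MRPL30 were lost with upper-quartile scaling. That of MRPL55 was also lost with the replicate number as a block (0.22, edgeR adjusted p = 0.0575), with a minimum of 10 counts in every library (0.21, edgeR adjusted p = 0.0514) and in 7 of the fits that left out 1 library, and that of MRPL30 in 5 such fits.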

How the results depend on the processing

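Precision was limited by 3 libraries per group rather than by depth. Of 1180 values of named members under other settings, 1110 stayed on their side of the threshold, 70 kept their direction but lost the call and 0 reversed. Upper-quartile scaling lost 15 of these calls. It moved the median of all genes from 0.00 to 0.08 with everolimus and from -0.01 to -0.08 for the departure.

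Counts of members called lower under the cut-off of the study were 0 for each comparison, as were those called higher against either single drug and for the departure. Against everolimus, 11 members were higher when only those 2 groups were fitted. Against SGI-1027, 1 member was lower with library totals, with the replicate block, with only those 2 groups and with limma-trend at both pseudocounts, and 11 were higher with library totals and 13 with limma-trend at both pseudocounts. Besides this, the replicate block moved no count of members by over 1.5 times, and with it the departure of MRPL55 was no longer called (0.22, edgeR adjusted p = 0.0575). The MRPL minus MRPS median for the combination was -0.070 with limma-trend on log2(FPKM + 1) and -0.0242 by place in the structure, and for the departure -0.16 without a filter on low counts. The cause was not tested.

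Leaving out each library in turn gave 58 to 64, 67 to 72 and 59 to 66 members lower with everolimus, SGI-1027 and the combination, with 0 to 1 higher with the combination. Against everolimus 12 to 22 were lower and 6 to 8 higher, against SGI-1027 1 to 4 lower and 3 to 10 higher, and 50 to 61 departures were above and 0 to 1 below 0. Calls against SGI-1027 rested on single libraries, with 10 members higher without DMSO replicate 1, 3 without combination replicate 2 or 3, 4 lower without SGI-1027 replicate 3, and 1 lower without DMSO replicate 2, everolimus replicate 2, SGI-1027 replicate 1 or 2 or any 1 combination library. The MRPL minus MRPS median ranged from 0.059 to 0.12 for everolimus, from -0.048 to 0.022 for SGI-1027, from -0.098 to -0.032 for the combination, from -0.13 to -0.060 against everolimus, from -0.076 to -0.060 against SGI-1027 and from -0.15 to -0.074 for the departure. Of the named members, calls were lost on leaving out 1 library for MRPL16, MRPL41, MRPL45 and MRPS10 with everolimus, MRPL14, MRPL33, MRPL34 and MRPS16 with SGI-1027, MRPL2, MRPL30 and MRPL45 with the combination, and MRPL30 and MRPL55 for the departure, all in the same direction as with all libraries.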

Other observations

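Transcripts of the factors whose motifs were searched were measured in the same libraries. On the log2 scale with everolimus, SGI-1027 and the combination, GABPA changed by 0.33, 0.32 and 0.37, each called higher by edgeR at an adjusted p under 0.05, and its partner GABPB1 by -0.59, -0.75 and -0.90, each called lower. NRF1 changed by -0.19, -0.39 and -0.53 and YY1 by -0.12, -0.19 and -0.18, each called lower. MYC changed by 0.36, 0.44 and 0.61, each called higher, and SP1 had 0.06, 0.17 and 0.18, of which those with SGI-1027 and the combination were called higher. These genes were named because their motifs were searched. Of the regulators list, PPARGC1B, a coactivator of mitochondrial genes, was lower with everolimus (-1.15) and higher with the combination (0.40), with a value of -0.14 with SGI-1027. It was named after its values were seen.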
